A study of Rattus norvegicus with 6 samples.

Results

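Secreted Wnt antagonists are proteins that cells release to dampen Wnt signalling in their surroundings. The 8 genes described here are Sfrp1, Sfrp2, Sfrp4, Sfrp5, Frzb, Wif1, Dkk2 and Dkk3. They were taken as every probe set whose platform annotation gives exactly 1 gene symbol from that set, which found 16 of the 31099 probe sets on the array. They are 8 of the 14217 genes that the array names in this way. Sfrp5, Dkk2 and Wif1 have 1 probe set each and the other 5 genes have several. The tissue was peripancreatic fat, a visceral depot beside the pancreas, from Wistar rats, an outbred strain. The lean group was 3 rats on standard chow (numbers 14, 18 and 19), and the obese group was 3 rats kept for 30 days on a cafeteria diet, which is high in calories (numbers 29, 32 and 42). Each rat gave 1 array, and neither age nor sex stands in the labels. Whole tissue was used, so a change in the number of cells of a type and a change in RNA per cell cannot be told apart.

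Wnt proteins bind a Frizzled receptor together with the co-receptor Lrp5 or Lrp6, and in the canonical branch this stabilises beta-catenin, which then acts with Tcf/Lef factors on target genes. Secreted frizzled-related proteins (the Sfrp genes and Frzb) carry a Frizzled-like domain and bind Wnts outside the cell, Wif1 binds Wnts through a domain of its own, and Dickkopf proteins such as Dkk2 act on the co-receptors. In fat, canonical Wnt signalling restrains the differentiation of preadipocytes, and Sfrp5 has been described as an adipokine that opposes Wnt5a.

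Promoters of several genes of this family are known for silencing by methylation of CpG sites in tumours, so the 250 bases before the start of Sfrp5, the gene that gives the family its interest in fat, and of Sfrp2, the gene with the largest difference between the groups, are shown with every CpG in capitals. They run 5′ to 3′ and come from the RefSeq promoter table (build GRCr8), which matched 4 of the 8 genes.
Sfrp5 (chr1:250960513-250960762, minus strand): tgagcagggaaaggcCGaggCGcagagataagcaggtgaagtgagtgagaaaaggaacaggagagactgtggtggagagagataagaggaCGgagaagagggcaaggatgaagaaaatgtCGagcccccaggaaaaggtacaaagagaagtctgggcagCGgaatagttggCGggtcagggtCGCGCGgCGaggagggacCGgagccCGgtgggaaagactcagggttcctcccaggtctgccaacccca
Sfrp2 (chr2:171387286-171387535, plus strand): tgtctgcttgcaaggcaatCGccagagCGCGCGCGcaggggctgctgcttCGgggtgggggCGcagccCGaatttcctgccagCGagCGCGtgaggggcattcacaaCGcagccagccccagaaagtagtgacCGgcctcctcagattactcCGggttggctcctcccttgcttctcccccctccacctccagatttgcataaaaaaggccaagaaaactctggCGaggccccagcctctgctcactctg
Sfrp5 has 12 CpG sites in this window and Sfrp2 has 15, against a median of 5 over the 33469 promoters of the table. Of these promoters, 68.5% have fewer CpG sites than Sfrp5 and 74.2% fewer than Sfrp2, so neither count is rare. For Wif1 and Frzb the window before the start given by the table runs into the gene record, so it may hold transcribed bases and is not shown; it has 27 CpG sites for Wif1 and 3 for Frzb. No methylation was measured here. The Tcf/Lef core CTTTGA, searched on both strands, is in none of these 4 windows, and 13.9% of all promoters hold it.

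The deposited values are log2 expression per probe set, so a difference of 1 is a 2.00-fold difference. The array medians lay between 5.63 and 5.68. Lean rat 14 carried transcripts of pancreatic acinar cells: the mean of 16 acinar genes was 8.76 on that array and 4.73 to 5.11 on the others. Of the 16 genes, 15 were highest there. Cpa1, in that list, was also high on obese rat 32 (8.14, against 8.66 on lean rat 14 and 4.80 to 6.51 on the others). Lean rat 14 also had the lowest hybridisation controls (mean 8.38, against 9.37 to 9.56). As a sign of RNA quality, the signal at the 3′ end minus that at the 5′ end of the control transcripts, averaged over 3 of them, was highest on obese rat 42 (1.28, against 0.79 to 1.10) (obese against lean, exact two-sided permutation p = 0.40, where 0.10 is the smallest that 3 against 3 can give). All 17 measured adipocyte genes lay above the array median on all arrays, with adiponectin (Adipoq) at 12.42 to 12.83.

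The first question was whether the cafeteria diet went with other levels of these antagonists in the depot. No secreted antagonist passed the test, and the Sfrp5 difference was -0.054 log2 units. The largest differences were those of Sfrp2, lower on average on the obese arrays by 1.91-fold on one probe set, of Dkk2 (1.41-fold, lower on average), of the bright Dkk3 probe set (1.34-fold, lower on average) and of Wif1 (1.32-fold, higher on average). Across the 16 probe sets, 7 had a higher and 9 a lower mean on the obese arrays, where 16989 of all 31042 probe sets tested were higher. The median difference was -0.071, against 0.020 over all. The median size of a difference, whatever its direction, was 0.18 for the 16 and 0.12 for all.

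limma was run over all 31042 probe sets, obese against lean, and p-values were adjusted over all of them by the Benjamini-Hochberg method. At an adjusted p under 0.05 this called 0 of 16 antagonist probe sets, against 0.00966% of all probe sets (3 in number), and the smallest adjusted p among the 16 was 0.329. At an adjusted p under 0.10 it was also 0 of 16, against 0.0193% of all. At an unadjusted limma p under 0.05 there were 4 of the 16, against 11.8% of all probe sets, namely 1 higher (Wif1) and 3 lower (Dkk2 and 1 probe set each of Sfrp2 and Frzb). The groups did not overlap for 2 of the 16, Wif1 and Dkk2, against 18.8% of all probe sets. Precision is limited by having 3 arrays a group, with a median SE of 0.11 for a difference over all probe sets.

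**Figure D1:**
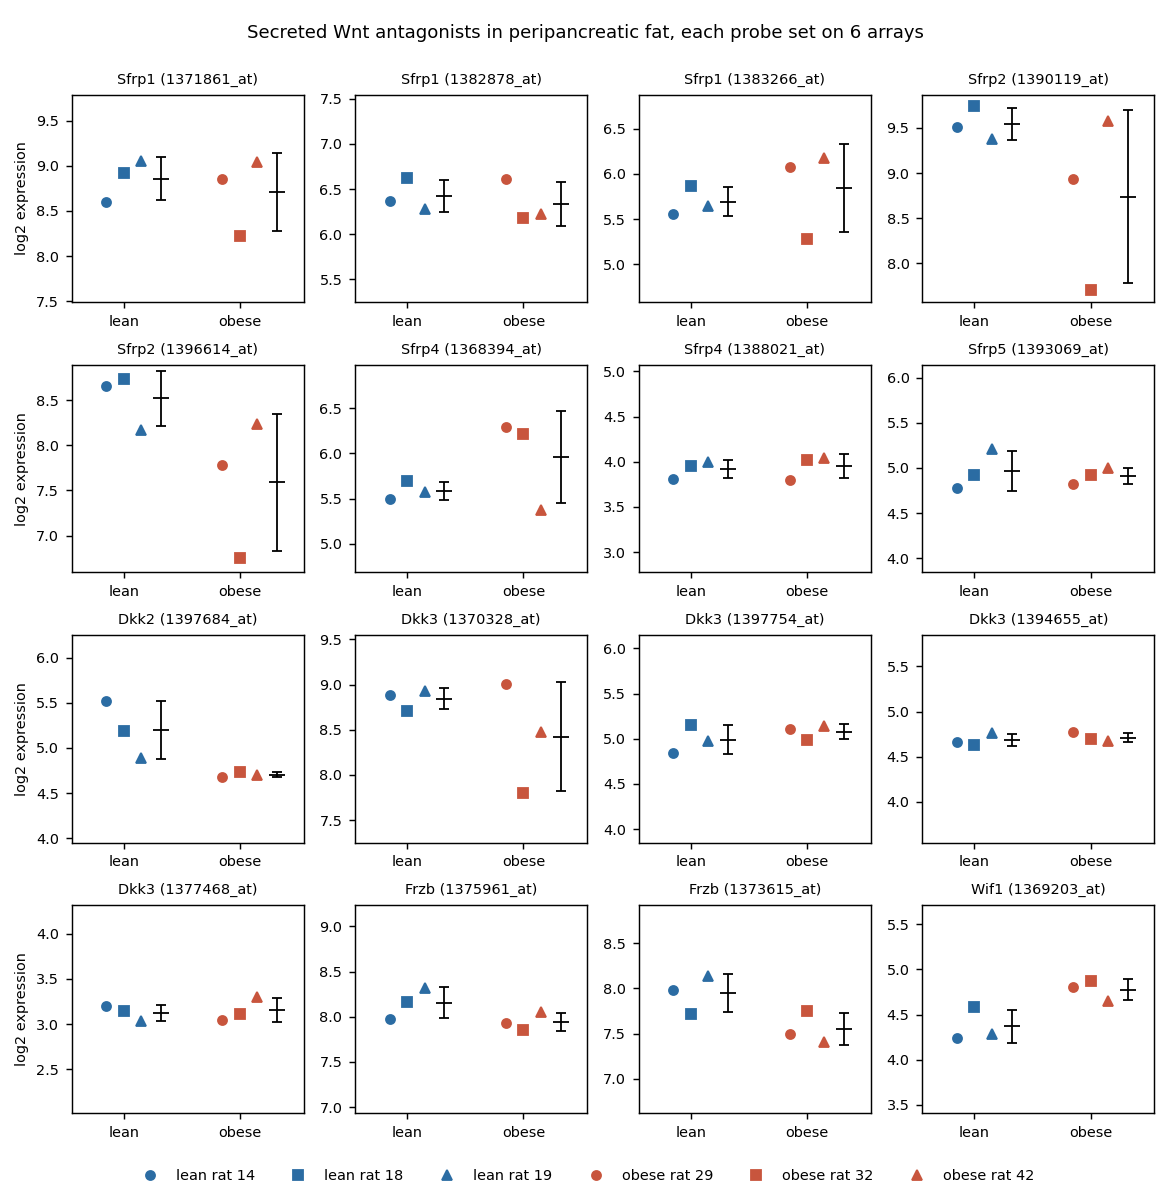
Log2 expression (vertical axis, panels of equal height in log2 units) of each of the 16 probe sets in 3 lean (blue) and 3 obese (red) rats; black marks are group means with bars of 1 SD. Obese rat 32 sits apart and low for both Sfrp2 probe sets and for the brightest Dkk3 probe set, Dkk2 is tight on the obese arrays, and the Sfrp5 values of the groups lie over one another.

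Sfrp5 (probe set 1393069_at) lay at 4.78 on lean rat 14, 4.92 on lean rat 18 and 5.21 on lean rat 19. It lay at 4.82 on obese rat 29, 4.92 on obese rat 32 and 5.001 on obese rat 42. The obese values fall wholly inside the lean range, and all 6 lie below the median of their array. The means were 4.97 ± 0.22 (SD, n = 3) in lean and 4.92 ± 0.090 (SD, n = 3) in obese rats. The obese minus lean difference was -0.054 (SE 0.13, 95% interval -0.35 to 0.24, limma adjusted p = 0.884). Without lean rat 19, the highest array, it was 0.066. For the signal of this probe set, the interval leaves out a difference as large as the means gave for Sfrp2. The probe set is dim, which limits what can be said of Sfrp5 RNA itself.

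Over the 6 arrays the Sfrp5 values spanned 0.43 log2 units, with lean rat 19 highest and lean rat 14 lowest. The probe sets most like it were looked for among 1228 probe sets of other named genes with a mean above the median and a range of at least 1 log2 unit. By Pearson correlation over the 6 arrays these were Rgs3 (0.98), Myc (0.98), Frat2 (0.97), Enc1 (0.96), Errfi1 (0.91) and Gadd45g (0.90). The most opposite were Atf6 (-0.98), Srpx2 (-0.97), Nherf1 (-0.95), Rasd1 (-0.93), Fgf1 (-0.89) and Clec3b (-0.87). These are a description only, since the extremes of 1228 candidates over 6 arrays can reach high correlations without any link to Sfrp5. All 6 like genes were highest on lean rat 19, as was Sfrp5. This follows from picking them by their likeness to Sfrp5 and is not a separate result. Myc, the proto-oncogene transcription factor, lay at 8.45 on lean rat 19 against 7.22 to 7.66 elsewhere. That array also had the highest mean of the 13 smooth muscle and pericyte genes (8.78, against 7.34 to 7.96), whose part in the likeness was not tested.

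Sfrp2, which binds Wnts and is made by fibroblast-like cells in many tissues, was measured by a pair of bright probe sets that followed each other closely over the 6 arrays (Pearson correlation 0.97). On 1396614_at the lean rats lay at 8.66 (rat 14), 8.74 (rat 18) and 8.17 (rat 19), and the obese rats at 7.79 (rat 29), 6.75 (rat 32) and 8.23 (rat 42). On 1390119_at the lean rats lay at 9.52, 9.74 and 9.38 in the same order, and the obese rats at 8.94, 7.70 and 9.58. Obese rat 42 is at the lean level on both, obese rat 29 is a little below it and obese rat 32 far below, so the groups overlap because of 1 obese rat. That rat, number 42, also had the highest 3′ minus 5′ signal (1.28). Per the labels, its array alone does not re-analyse a sample deposited before. The part of either in the Sfrp2 values, and in the Sfrp4 values below, was not tested.

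The obese minus lean difference of Sfrp2 was -0.93 on 1396614_at (SE 0.36, 95% interval -1.78 to -0.079, unadjusted p = 0.0361, limma adjusted p = 0.398). It was -0.80 on 1390119_at (SE 0.43, 95% interval -1.81 to 0.20, limma adjusted p = 0.499). Without obese rat 32 the differences were -0.51 and -0.29, and without obese rat 42 they were -1.25 and -1.23. The size of the Sfrp2 difference thus rests on which obese rats are counted. The SD over the obese rats was 0.76 and 0.96, larger than for 99.1% and 99.6% of all probe sets. The lean SD was 0.31 and 0.18, larger than for 94.0% and 77.2% of them.

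Sfrp1, which forms a subfamily with Sfrp2 and Sfrp5, had 3 probe sets and no common direction. On the brightest (1371861_at) the lean rats lay at 8.60, 8.92 and 9.06 and the obese rats at 8.85 (rat 29), 8.22 (rat 32) and 9.04 (rat 42). Only obese rat 32 lies outside the lean range. The difference was -0.15 there (SE 0.22, limma adjusted p = 0.813), and became 0.092 without obese rat 32. The other probe sets had differences of -0.088 and 0.15 (limma adjusted p = 0.838 and 0.819). All 3 were lowest on obese rat 32.

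Sfrp4, a member of the family reported in adipose tissue of obese people, had 1 probe set near the array median (1368394_at). It lay at 5.49, 5.69 and 5.57 in lean rats 14, 18 and 19, and at 6.29, 6.22 and 5.37 in obese rats 29, 32 and 42. A pair of obese rats stands above every lean rat, and obese rat 42 is below all of them. The difference was 0.37 (SE 0.24, 95% interval -0.18 to 0.93, limma adjusted p = 0.565). Without obese rat 42 it was 0.67 with a limma adjusted p of 0.0930, the smallest of any antagonist probe set under any alternative tried. The second probe set (1388021_at) lay below the lower quartile of every array, at 3.80 to 4.05, with a difference of 0.034.

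Frzb, also called Sfrp3 and first known from cartilage, was measured by a pair of probe sets above the array median. On 1373615_at the lean rats lay at 7.99, 7.72 and 8.14 and the obese rats at 7.50, 7.75 and 7.41. The groups overlap by 1 lean and 1 obese rat, rats 18 and 32. The difference was -0.39 (SE 0.14, 95% interval -0.72 to -0.062, unadjusted p = 0.0260, limma adjusted p = 0.376), and stayed between -0.51 and -0.30 when any 1 array was left out. On 1375961_at the difference was -0.21 (SE 0.11, limma adjusted p = 0.506), with lean rats at 7.98 to 8.32 and obese rats at 7.85 to 8.05.

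Wif1 was the 1 antagonist probe set whose obese values all lay above the lean ones. The lean rats lay at 4.25 (rat 14), 4.58 (rat 18) and 4.28 (rat 19) and the obese rats at 4.80 (rat 29), 4.88 (rat 32) and 4.65 (rat 42). The gap between the groups is small, from 4.58 to 4.65, and all values lie below the array median. Those of lean rats 14 and 19 also lie below the lower quartile of their arrays (4.43 and 4.44). The means were 4.37 ± 0.18 (SD, n = 3) and 4.78 ± 0.12 (SD, n = 3), a difference of 0.40 (SE 0.12, 95% interval 0.12 to 0.69, unadjusted p = 0.0113, limma adjusted p = 0.329). Of all probe sets, 11.8% separated the groups in this direction.

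Dkk2, which acts on the co-receptors Lrp5 and Lrp6, was the 1 antagonist probe set whose obese values all lay below the lean ones. The lean rats lay at 5.52 (rat 14), 5.19 (rat 18) and 4.89 (rat 19) and the obese rats at 4.68, 4.73 and 4.71. The lean values spread over 0.63 log2 units and the obese values over 0.047, all below the array median. The difference was -0.49 (SE 0.16, 95% interval -0.86 to -0.13, unadjusted p = 0.0153, limma adjusted p = 0.340). The highest value was on lean rat 14, the array with acinar transcripts, whose part was not tested, and without it the difference was -0.33. Of all probe sets, 7.02% separated the groups in this direction.

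Dkk3, a divergent Dickkopf protein whose action on Wnt signalling is less settled, had 1 bright probe set and 3 below the array median. On the bright one (1370328_at) the lean rats lay at 8.89, 8.71 and 8.93 and the obese rats at 9.003 (rat 29), 7.80 (rat 32) and 8.47 (rat 42). Obese rat 29 is above and obese rat 32 well below all lean rats. The difference was -0.42 (SE 0.28, limma adjusted p = 0.579), -0.11 without obese rat 32 and -0.71 without obese rat 29. The 3 dim probe sets had differences between 0.030 and 0.087 (limma adjusted p = 0.767 to 0.916) and did not follow the bright one over the arrays (Pearson correlation -0.25 to 0.26).

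**Figure D2:**
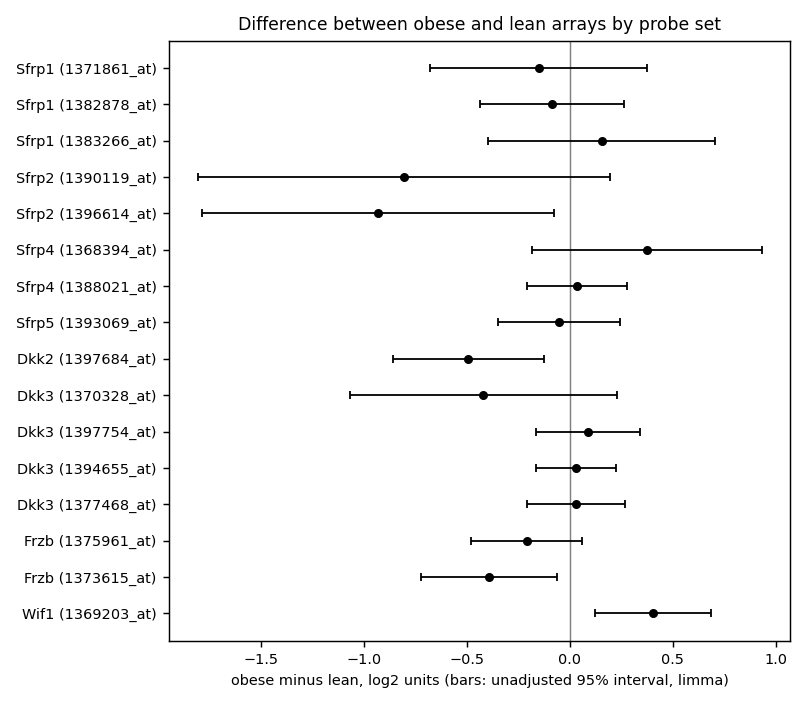
Obese minus lean difference in log2 units (horizontal axis) for each of the 16 probe sets, as a point with its unadjusted 95% interval from limma. The intervals of Sfrp2 (1396614_at), Dkk2, Frzb (1373615_at) and Wif1 leave out 0, the interval of Sfrp5 runs from -0.35 to 0.24, and none of the 16 passed after adjustment.

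The antagonists differed among themselves in which rats were high or low. Of the 16 probe sets 7 were lowest on obese rat 32, where 15.8% of all probe sets were lowest, and these were all of Sfrp1 and Sfrp2, the bright Dkk3 probe set and 1 of Frzb. Wnt4, a Wnt ligand named below by the rule for the pathway, went with them: it lay at 9.23, 9.10 and 8.95 in the lean rats and at 8.63, 6.88 and 8.96 in obese rats 29, 32 and 42. Marker lists of other cells in the depot had some of their lowest values on that array. The mean of 10 mesothelial genes, from the cell layer that covers visceral fat, was 8.42 on obese rat 32, against 9.28 and 8.88 on the other obese arrays and 8.62 to 8.84 on the lean ones, and 6 of the 10 were lowest there. Wt1, a mesothelial transcription factor, lay at 8.82 there against 9.68 to 10.07 elsewhere. The mean of 9 B cell and lymph node genes was also lowest there (6.50, against 6.96 to 7.75), with 5 of 9 lowest. Cxcl13, a chemokine in that list, lay at 8.10 there against 10.90 to 12.15 elsewhere, and so weighs on the list mean. Cd37 of the same list was lowest on obese rat 42 instead (6.18, against 6.63 on obese rat 32). Dpp4, a marker of one kind of adipose progenitor, lay at 8.65 on obese rat 32 against 9.64 to 10.44 elsewhere. Pi16 of the same list went the other way and was highest there (10.32, against 9.07 to 9.84). Of the 14 progenitor and fibroblast genes, 3 were lowest there. The mean of all 14 was 9.61, inside the range of the other arrays (9.34 to 9.71). The macrophage and adipocyte lists are given by group. All 12 macrophage genes had a lower mean on the obese arrays (median difference -0.65), where 14053 of all 31042 probe sets were lower. The macrophage list mean was 9.67 to 10.15 on the lean arrays and 9.78, 9.38 and 8.71 on those of obese rats 29, 32 and 42. The mean of the 17 adipocyte genes ran from 11.21 to 11.38 in lean rats and from 11.55 to 11.77 in obese rats, without overlap and highest on obese rat 32. The part of these cells in the antagonist values was not tested.

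**Figure D3:**
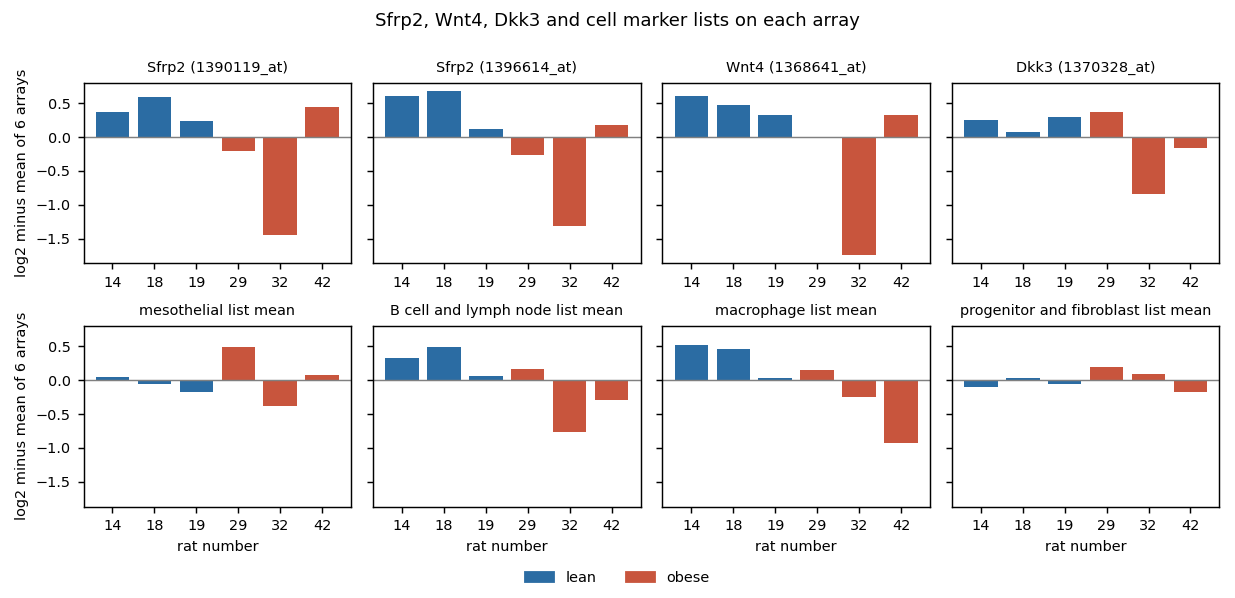
Log2 value minus the mean of the 6 arrays (vertical axis) for Sfrp2, Wnt4, the bright Dkk3 probe set and the mean of 4 cell marker lists, by rat number (horizontal axis; blue lean, red obese). On obese rat 32 the deviation was -1.44 and -1.31 for Sfrp2, -1.74 for Wnt4, -0.84 for Dkk3, -0.38 for the mesothelial list and -0.76 for the B cell and lymph node list.

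Beside the antagonists, the other parts of the Wnt pathway were counted from fixed gene lists, and 0 of their probe sets were called at a limma adjusted p under 0.05 (background 0.00966%). The counts that follow are at an unadjusted p under 0.05, against 6.50% of all probe sets higher and 5.33% lower. Of 10 probe sets for other secreted or surface inhibitors, 1 was higher (Trabd2b, a protease that inactivates Wnts, 0.28) and 1 lower (Znrf3, which removes Frizzled receptors from the surface, -0.39). Sostdc1 and Kremen1 lay at -0.37 and -0.16. Of 17 ligand probe sets 2 were higher, Wnt1 (0.36) and Wnt9a (0.39), and 0 lower. Wnt4 lay at -0.94 (SE 0.49, limma adjusted p = 0.494) and Wnt16 at 0.16. Wnt1 lay at 5.57 to 5.62 in the lean and 5.87 to 6.02 in the obese rats, without overlap.

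Of 5 probe sets for R-spondins and other agonists 1 was lower (Rspo3, which strengthens Wnt signals, -0.26), while its second probe set lay at -0.037, Rspo1 at 0.043 and the brighter probe set of Ndp at 0.027. Of 18 receptor and co-receptor probe sets 1 was higher (the dimmer one of Fzd5, 0.24) and 0 lower. Whatever the p, 15 of the 18 had a higher mean on the obese arrays, as had 16989 of all 31042 probe sets. The brightest probe sets of Fzd4, Lrp5, Fzd1 and Fzd5 lay at 0.39, 0.29, 0.25 and 0.12. The level of Fzd4 and of Lrp5 was lowest on lean rat 14 (9.42 and 5.32).

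Of 52 probe sets for intracellular transducers 5 were higher and 7 lower; the 5 were of Gsk3a, Tle1, Tle3, Csnk1e and Dvl1. Gsk3a, a kinase of the complex that marks beta-catenin for breakdown, lay at 0.34, and the co-repressors Tle1 and Tle3 at 0.32 and 0.45. Lef1, a DNA-binding partner of beta-catenin, lay at -0.51, with its second probe set at -0.27. Of 30 probe sets for genes known as beta-catenin targets in other tissues 2 were higher, Fgf18 and Ccn5, and 8 lower. Fgf18, a growth factor, had the largest difference (0.96, SE 0.13, limma adjusted p = 0.146), and Cd44, a receptor for hyaluronan that immune cells also carry, lay at -0.67 on its brighter and -0.87 on its dimmer probe set. Lef1 and Znrf3 stand in this list as well. The list medians ran from -0.074 for the target genes to 0.073 for the receptors.

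**Figure D4:**
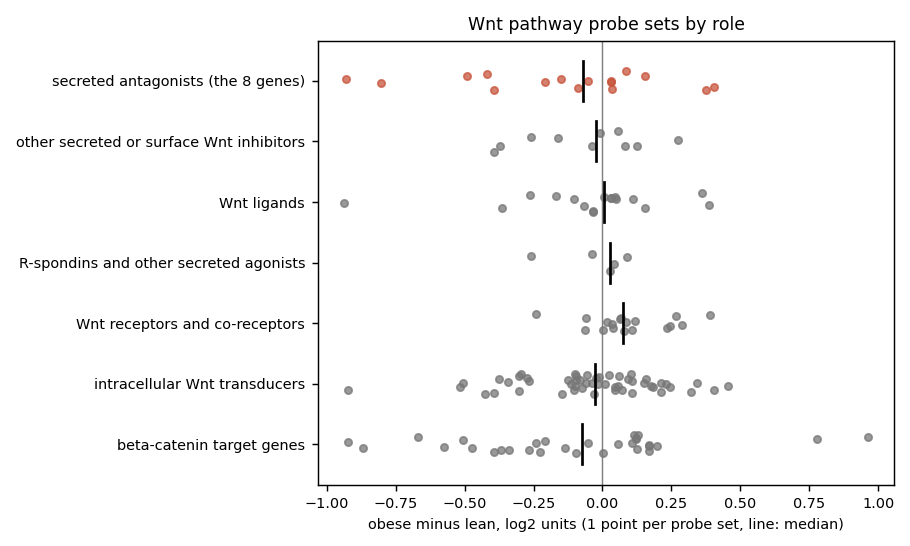
Obese minus lean difference in log2 units (horizontal axis) for every probe set of the secreted antagonists (red) and of 6 other lists of Wnt pathway genes (grey), with the median of each list as a black line. The medians lie between -0.074 and 0.073, and the lowest points are Sfrp2 among the antagonists, Wnt4 among the ligands and Tcf7 among transducers and targets.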

How the data were processed

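The authors deposited log2 expression values per probe set from 6 Affymetrix rat arrays, made with RMA and affy per the submitters' processing notes. The program versions, the probe definition and the set of arrays that RMA was run on are not given here by the labels. Per the labels, the arrays of all rats but obese rat 42 re-analyse samples deposited before. Of 31099 probe sets 57 controls were left out. Platform annotation gave 1 gene symbol for 20826 of the rest, several for 436 and none for 9780.

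Obese and lean were compared per probe set with limma version 3.58.1 under R version 4.3.3, using lmFit and eBayes, two-sided and without covariates, with Benjamini-Hochberg adjustment over all 31042 probe sets. The limma step was tested on simulated data. Intervals are unadjusted 95% intervals. The replicates are different rats, so p-values measure the spread between them, handling included. The antagonists and all gene lists were chosen with earlier results of these data known. All antagonist probe sets are named, as are up to 4 genes of each pathway list with the smallest p on their brightest probe set. Some, not all, of the first measured cell markers are named too, and the 6 genes most and least like Sfrp5. Wt1, Dpp4, Cd37, Cpa1, Tcf7, Csnk1e, Dvl1, Ccn5 and the dimmer probe set of Fzd5 were named after their values were seen. So were the genes of the closing section. Cell lists were averaged over the brightest probe set of each gene. Tables and plots used Python 3.11.15, pandas 2.3.3 and matplotlib 3.10.9. The alternatives were median centring, quantile normalization, a filter on dim probe sets, 1 probe set a gene, an intensity trend, array weights, a threshold of 0.10 and arrays left out.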

Additional observations from a re-analysis of the deposited data

How the results depend on the processing

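In every alternative tried, 0 antagonist probe sets were called at an adjusted p under 0.05, nor at 0.10 with all arrays. Of the 16 probe sets 8 kept their direction under every alternative, namely both of Sfrp2, both of Frzb, Dkk2, Wif1, the bright Dkk3 and the brighter Sfrp4 probe set, and 8 did not, whose differences with all arrays lay between -0.15 and 0.15. Under quantile normalization Sfrp4 (1388021_at) lay at -0.010 and Dkk3 (1394655_at) at -0.0087, and with array weights Dkk3 (1377468_at) lay at -0.0039. With lean rat 14 and obese rat 42 both left out, Dkk3 lay at -0.0017 (1377468_at) and -0.019 (1397754_at), Sfrp1 (1383266_at) at -0.079 and Sfrp4 (1388021_at) at -0.066. With 1 array left out at a time the differences ran from -0.15 to 0.066 for Sfrp5, from -0.32 to 0.092, from -0.23 to 0.0093 and from -0.012 to 0.44 for Sfrp1 (1371861_at, 1382878_at and 1383266_at), from -0.021 to 0.11 for Sfrp4 (1388021_at) and from -0.042 to 0.085 for Dkk3 (1377468_at). Probe sets without overlap, 2 with all arrays, numbered 3 to 6 with 1 array left out and 7 without both lean rat 14 and obese rat 42. Fewer arrays separate more easily there. The number was 0 among probe sets above the median level. The share of all probe sets was computed only for the main fit. The counts of the alternatives, here and in what follows, thus have no background beside them. At an unadjusted p under 0.05 there were 4 with all arrays and 3 to 5 with 1 array left out. Among probe sets above the median level there were 2, since Wif1 and Dkk2 lay below it and were not counted. With 1 probe set a gene there were also 2. There the dimmer probe sets of Sfrp2 and Frzb were left out, and the brighter ones did not reach the threshold. No paired analysis was possible because each replicate number belongs to 1 rat. The number of arrays and the low brightness of Sfrp5, Dkk2 and Wif1 limit what can be seen.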

Other observations

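The genes that followed Sfrp2 and Sfrp4 across the rats were looked up after their values were seen, by the rule used for Sfrp5, and are given as a description over 6 arrays. Most like Sfrp2 (1390119_at) by Pearson correlation were the ligand Wnt4 (0.98) and Cxcl13, a chemokine that attracts B cells (0.97). Cxcl13 is also in the B cell and lymph node list above. St6galnac2, Cxcl14, Irf8 and Sgk1 followed at 0.97 each. Cxcl13 spanned 4.05 log2 units: it lay at 12.15, 12.08 and 11.58 in the lean rats, at 10.90 in obese rat 29, at 8.10 in obese rat 32 and at 11.33 in obese rat 42. Unlike Sfrp2, it lay below every lean rat in obese rat 42. Most opposite were Ptger3, a prostaglandin E receptor (-0.98), Rab3b (-0.98) and Vldlr, a lipoprotein receptor (-0.97). Ptger3 lay at 7.79 to 7.85 in the lean rats and at 8.21, 8.76 and 7.75 in obese rats 29, 32 and 42.

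Leptin (Lep), the adipocyte hormone, was among the 6 genes most like Sfrp4 (1368394_at), with a Pearson correlation of 0.94. It lay at 10.42 and 10.75 in obese rats 29 and 32 and at 8.80 in obese rat 42, inside the lean range of 8.72 to 9.23. The others were Fndc1, a matrix protein (0.97), Akr1c3 (0.95), Adora1 (0.94), Sync (0.94) and Gpd1, which supplies glycerol phosphate for fat storage (0.94). Most opposite to Sfrp4 were Sox17 (-0.99), Dennd3 (-0.99), Bcl6b (-0.98), Egfl7 (-0.98), Aqp1 (-0.97) and Znrf1 (-0.96). Sox17, a transcription factor of endothelial cells, lay at 8.46 to 8.70 in the lean rats, at 7.70 and 7.86 in obese rats 29 and 32 and at 9.03 in obese rat 42. The mean of the 9 endothelial genes listed was 8.76 to 8.98 on the lean arrays. It was 8.21, 8.74 and 9.10 on those of obese rats 29, 32 and 42, where the value of obese rat 32 is just below the lean range. The part of endothelial cells in the Sfrp4 values was not tested.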
